A study of Homo sapiens with 6 samples.

Results

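The 3 NR4A receptors, 5 MAP kinase phosphatases (DUSP1, DUSP4, DUSP5, DUSP6 and DUSP10) and 2 Sprouty genes (SPRY2 and SPRY4) were followed on 6 arrays of A2780 cells. These 10 genes, out of 18418 measured, were chosen by name with their log2 values on all 6 arrays and their log2 changes against both controls already known. Each was read by 1 probe set annotated to that gene alone. All values and changes of the 10 genes are therefore descriptions, and none of them was tested.

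A2780 is a human ovarian cancer cell line. Lentivirus delivered short hairpin RNAs (shRNAs), which direct the breakdown of a matching transcript, and RNA was taken 96 hours after infection. The groups were FAL-1 shRNA1 and shRNA2 with their FAL-1 Ctrl, and BMI1 shRNA1 and shRNA2 with their BMI1 Ctrl, with 1 array for each infection. BMI1 is a Polycomb protein that helps keep genes silent, and FAL-1 is a long non-coding RNA. All arrays, controls included, came from infected cells in medium with 10% fetal bovine serum, and the virus medium had been replaced at 24 hours. The sequence of each hairpin and of the control hairpins, and any selection of infected cells, were not stated in the labels.

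NR4A1, NR4A2 and NR4A3 are orphan nuclear receptors that act without a known ordinary ligand, so that their activity is set largely by how much of them is made. Their genes are switched on within minutes by growth factors, cyclic AMP and stress, partly through the factor CREB, which binds the cyclic AMP response element (CRE). Dual-specificity phosphatases (DUSPs) of the MAP kinase group remove phosphate from ERK, JNK or p38 kinases, and Sprouty proteins restrain signalling from receptor tyrosine kinases to RAS and ERK. Many DUSP and Sprouty genes are induced by ERK activity and so form a negative feedback on it.

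The 250 bases before the transcription start are shown for NR4A3, DUSP1, SPRY4 and DUSP6, so that genes of each family can be set beside the values below. Each of them was highest with FAL-1 hairpin 2, and DUSP6 was also above both controls with every hairpin. Sequences are from RefSeq on GRCh38.p14, on the strand of the gene, 5′ to 3′, and capitals mark the CRE (TGACGTCA) and its core (TGACG), searched on both strands.
NR4A3: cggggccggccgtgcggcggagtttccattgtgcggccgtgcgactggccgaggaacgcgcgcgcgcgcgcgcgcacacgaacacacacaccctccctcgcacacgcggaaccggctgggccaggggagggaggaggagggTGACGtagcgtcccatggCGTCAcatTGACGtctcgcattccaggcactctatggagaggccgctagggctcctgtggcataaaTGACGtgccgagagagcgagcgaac
DUSP1: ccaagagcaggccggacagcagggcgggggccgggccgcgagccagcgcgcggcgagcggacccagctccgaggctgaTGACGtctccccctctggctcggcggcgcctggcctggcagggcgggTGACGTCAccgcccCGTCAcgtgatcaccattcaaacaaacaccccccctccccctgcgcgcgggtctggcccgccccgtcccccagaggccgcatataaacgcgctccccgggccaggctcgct
SPRY4: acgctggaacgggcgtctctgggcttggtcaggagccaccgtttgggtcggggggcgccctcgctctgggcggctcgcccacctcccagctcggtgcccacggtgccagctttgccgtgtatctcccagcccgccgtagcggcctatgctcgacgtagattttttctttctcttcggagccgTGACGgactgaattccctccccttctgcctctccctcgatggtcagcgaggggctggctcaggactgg
DUSP6: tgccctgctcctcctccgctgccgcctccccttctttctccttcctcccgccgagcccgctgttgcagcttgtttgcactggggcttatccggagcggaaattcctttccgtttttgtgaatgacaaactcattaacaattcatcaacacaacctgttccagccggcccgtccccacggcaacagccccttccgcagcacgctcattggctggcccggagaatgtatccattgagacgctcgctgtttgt
The windows are chr9:99821635-99821884 (plus strand) for NR4A3, chr5:172771196-172771445 (minus strand) for DUSP1, chr5:142324248-142324497 (minus strand) for SPRY4, and chr12:89352502-89352751 (minus strand) for DUSP6. The DUSP1 window held 1 complete CRE, which begins 125 bases before the start and contains 2 overlapping matches of the core, 1 on each strand. It held 2 further cores. The NR4A3 window held 4 cores, 3 of them between 109 and 83 bases before the start and 1 at 25 bases, and the SPRY4 window held 1 core. No core was found in the DUSP6 window. Over 35116 promoter windows of the same length, 1.65% held the complete CRE and 21.2% the core. Of the 7 genes with a RefSeq window here (NR4A1, NR4A3, DUSP1, DUSP6, DUSP10, SPRY2 and SPRY4), 1 held the complete CRE and 4 the core in at least 1 of their windows. NR4A1, DUSP10 and SPRY2 had more than 1 window, so these counts of genes are not directly comparable with the shares of windows. None of these 7 held the AP-1 element TGANTCA (6.57% of all windows), the NR4A element NBRE (AAAGGTCA, 1.05%), the ETS element CCGGAAG (8.52%), a CArG box (1.16%) or a p53 element written as its usual 10-letter consensus (5.57%). Of the 7 genes, NR4A3, DUSP1 and SPRY4 had a core and were highest with FAL-1 hairpin 2, as were NR4A1 and DUSP6 without a core. SPRY2, with a core, and DUSP10, without one, were not highest with it. The motifs are letters in a window and were not tested for binding or for a link to the values.

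The arrays gave log2 values of probe sets, processed by the authors with RMA, so a difference of 1 is a 2-fold difference. Array medians lay between 6.94 and 7.09, and lower quartiles between 5.72 and 5.84. Pearson's r across probe sets was 0.985 to 0.995 between arrays of 1 target and 0.973 to 0.987 between those of different targets. BMI1 stood at 26.8% of its control with BMI1 hairpin 1 and at 64.0% with BMI1 hairpin 2. With FAL-1 hairpins 1 and 2 it stood at 99.9% and 79.8% of the FAL-1 control. FAL-1 (symbol FALEC) was not among the annotated probe sets used here, so its level was not analysed. FAL-1 hairpin 2 was the array farthest from its control, with 4.15% of genes higher and 7.05% lower by 1.5-fold or more, beside 0.956% and 1.56% for FAL-1 hairpin 1, while the BMI1 hairpins had 1.75% and 1.97% higher and 3.26% and 3.85% lower. VIM, a filament protein of mesenchymal cells, read 12.62 to 12.82, KRT8 9.04 to 11.07 and KRT18 8.45 to 9.58, both of them keratins of simple epithelia. EPCAM and CDH1, which mark epithelial cells, read 6.01 to 6.53 and 5.80 to 6.09, below the array medians but, except for CDH1 with BMI1 hairpin 1, above the lower quartiles. The leukocyte gene PTPRC read at most 5.10, and PECAM1 and ALB of endothelium and liver at most 5.78 and 5.72, all below the lower quartile of their arrays. COL1A1, a collagen of fibroblasts, read 8.14 to 8.97. MUC16, PAX8 and WT1, used as ovarian tumour markers, read 5.81 to 6.18, 6.56 to 6.98 and 6.74 to 7.05. MUC16 and PAX8 were below the median of every array, and WT1 was below it except with FAL-1 hairpin 2. With BMI1 hairpin 1 MUC16 was also below the lower quartile. A lower value in such bulk RNA can come from fewer cells with the transcript or from less of it per cell, and these cannot be told apart.

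The NR4A receptors separated the FAL-1 set of arrays from the BMI1 set. NR4A2, which dopamine neurons need to form, read 7.67 and 9.37 with the FAL-1 hairpins 1 and 2 and 7.02 in their control. It read 6.03 and 6.66 with the BMI1 hairpins 1 and 2 and 5.90 in their control. Every FAL-1 set array, the control included, was above every BMI1 set array, and within each set both hairpins were above their control. The range over the arrays was 3.47 on the log2 scale, beside a median range of 0.41 over all genes.

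Against its own control NR4A2 was 1.57-fold and 5.12-fold higher with FAL-1 hairpins 1 and 2, and 1.09-fold and 1.69-fold higher with BMI1 hairpins 1 and 2. The mean log2 change was 1.50 ± 1.20 with FAL-1 knockdown and 0.44 ± 0.45 with BMI1 knockdown (SD, n = 2 hairpins each). The spread between hairpins was thus nearly as large as the change for FAL-1 and as large as the change for BMI1. With the controls exchanged, the FAL-1 hairpins gave 1.77 and 3.47, and the BMI1 hairpins gave -0.99 and -0.36. The direction of the BMI1 change turned with the choice of control, because NR4A2 was 2.17-fold higher in the FAL-1 control than in the BMI1 control.

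NR4A1, the receptor also called Nur77, read 8.39 and 8.60 with the FAL-1 hairpins and 8.20 in their control. It read 7.74 and 7.91 with the BMI1 hairpins and 7.86 in their control. The FAL-1 hairpins were above both controls, and the BMI1 hairpins lay on either side of their own. The mean change was 0.29 ± 0.15 with FAL-1 knockdown and -0.03 ± 0.12 with BMI1 knockdown (SD, n = 2 hairpins each).

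NR4A3, also called NOR1, read 6.69 and 7.38 with the FAL-1 hairpins and 6.69 in their control. It read 6.49 and 6.46 with the BMI1 hairpins and 6.38 in their control. FAL-1 hairpin 1 differed from its control by less than 0.01, while hairpin 2 was 1.61-fold higher, so the mean FAL-1 change of 0.35 ± 0.49 (SD, n = 2 hairpins) rested on hairpin 2 alone. The BMI1 change was 0.10 ± 0.02 (SD, n = 2 hairpins) and became -0.21 against the FAL-1 control.

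For all 3 receptors and for DUSP4, the 3 FAL-1 set arrays did not overlap the 3 BMI1 set arrays. Over all genes, 12.4% had a FAL-1 set wholly above the BMI1 set and 6.35% wholly below it, which none of the 10 genes did. Without FAL-1 hairpin 2 the count was 4 of the 10, beside 19.2% of all genes; leaving out an array cannot lower such a count. Such a separation was not limited to the NR4A genes and DUSP4, and some genes of the lists below showed it too. The immediate early gene EGR1 read 10.65 to 11.64 in the FAL-1 set and 9.54 to 10.52 in the BMI1 set. RGS2 read 7.96 to 8.64 in the FAL-1 set and 7.29 to 7.70 in the BMI1 set. For other list genes, such as FOS and JUNB, the sets overlapped. The labels give no batch, and target and set cannot be told apart in this difference. The controls alone differed by 0.34 for NR4A1, 1.12 for NR4A2 and 0.31 for NR4A3, all higher in the FAL-1 control. The FAL-1 control was the higher for 8 of the 10 genes, all but DUSP10 and SPRY4, and for 55.1% of all genes. The median of this difference was 0.22 over the 10 genes and 0.02 over all genes.

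**Figure D1:**
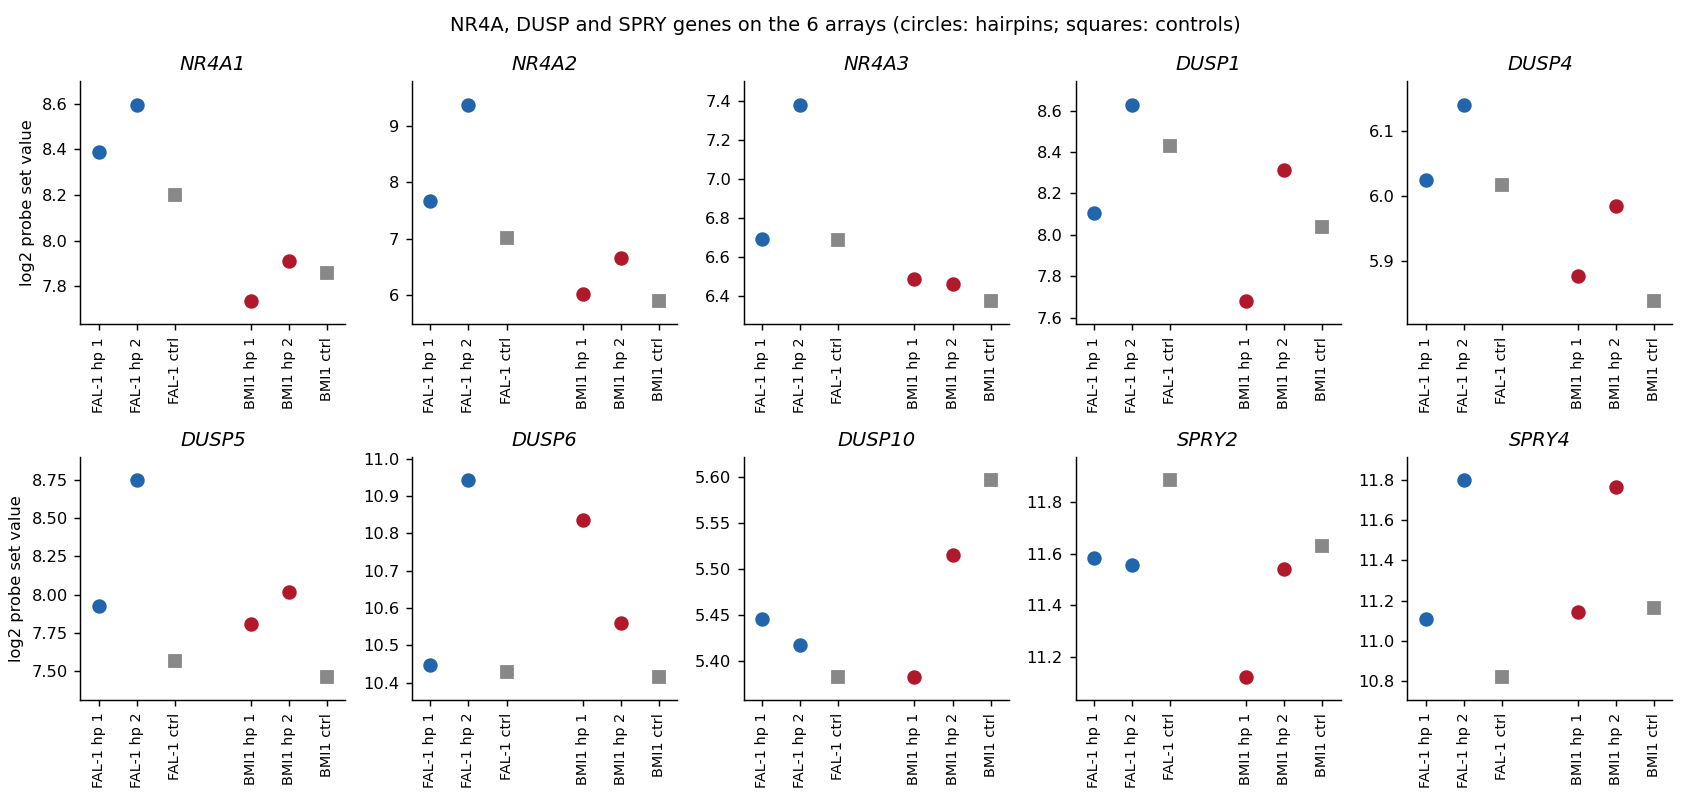
Log2 probe set values (vertical axes, each panel with its own range) of the 10 genes on the 6 arrays, with hairpin arrays (hp) as circles, control arrays (ctrl) as squares and 1 array per point. The NR4A panels show all 3 FAL-1 set arrays above the BMI1 set, and the DUSP5 panel shows all 4 hairpin arrays above both controls.

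Of the phosphatases, DUSP5 had the widest range. DUSP5 acts in the nucleus and is specific for ERK. It read 7.93 and 8.75 with the FAL-1 hairpins and 7.57 in their control, and 7.81 and 8.02 with the BMI1 hairpins and 7.47 in their control. All 4 hairpin arrays were above both control arrays, which differed from each other by 0.10. The mean change was 0.77 ± 0.58 with FAL-1 knockdown, or 1.70-fold, and 0.45 ± 0.15 with BMI1 knockdown, or 1.36-fold (SD, n = 2 hairpins each). Against the other target's control these were 0.87 for FAL-1 and 0.34 for BMI1, so the direction did not depend on the control.

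DUSP6 is a cytoplasmic phosphatase that is also specific for ERK and is widely used as a readout of ERK activity. It read 10.45 and 10.94 with the FAL-1 hairpins and 10.43 in their control. It read 10.84 and 10.56 with the BMI1 hairpins and 10.42 in their control. All 4 hairpin arrays were again above both controls, although FAL-1 hairpin 1 was higher by only 0.02. The means were 0.27 ± 0.35 with FAL-1 knockdown and 0.28 ± 0.20 with BMI1 knockdown (SD, n = 2 hairpins each). For BMI1 the array with less BMI1, hairpin 1, had the larger DUSP6 change, 0.42 beside 0.14 for hairpin 2. For DUSP5 the order was the other way, 0.34 with hairpin 1 and 0.55 with hairpin 2.

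DUSP1, an inducible nuclear phosphatase of p38, JNK and ERK, differed between hairpins more than between targets. It read 8.10 and 8.63 with the FAL-1 hairpins and 8.43 in their control, and 7.68 and 8.32 with the BMI1 hairpins and 8.04 in their control. With both targets hairpin 1 was below its control and hairpin 2 above it. The changes were -0.33 and 0.20 with FAL-1 hairpins 1 and 2, and -0.36 and 0.28 with BMI1 hairpins 1 and 2. The mean changes were -0.06 ± 0.37 with FAL-1 knockdown and -0.04 ± 0.45 with BMI1 knockdown (SD, n = 2 hairpins each), both far inside the spread between hairpins.

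The remaining phosphatases were dim. DUSP4, a nuclear phosphatase of ERK and JNK, read 6.02 and 6.14 with the FAL-1 hairpins and 6.02 in their control, and 5.88 and 5.98 with the BMI1 hairpins and 5.84 in their control. Its whole range was 0.30. DUSP10, which acts on JNK and p38, lay below the lower quartile of probe set values on all 6 arrays. It read 5.45 and 5.42 with the FAL-1 hairpins and 5.38 in their control, and 5.38 and 5.52 with the BMI1 hairpins and 5.60 in their control, a range of 0.21. Values this low may hold little signal above background, and no background measure was at hand.

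The Sprouty genes differed from each other. SPRY2 read 11.58 and 11.56 with the FAL-1 hairpins and 11.88 in their control. It read 11.13 and 11.54 with the BMI1 hairpins and 11.63 in their control. All 4 hairpin arrays were below both controls, by 0.04 to 0.76. The mean change was -0.31 ± 0.02 with FAL-1 knockdown and -0.30 ± 0.29 with BMI1 knockdown (SD, n = 2 hairpins each). The FAL-1 hairpins were close to each other, but against the BMI1 control their mean was only -0.06, since SPRY2 was higher by 0.25 in the FAL-1 control than in the BMI1 control.

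SPRY4 read 11.11 and 11.80 with the FAL-1 hairpins and 10.82 in their control. It read 11.14 and 11.76 with the BMI1 hairpins and 11.16 in their control. Hairpin 2 of each target stood high, at 1.96-fold for FAL-1 and 1.52-fold for BMI1 over the own control, while hairpin 1 gave 1.22-fold for FAL-1 and 0.99-fold for BMI1. Against the BMI1 control FAL-1 hairpin 1 read -0.06, so its direction depended on the control. The mean changes were 0.63 ± 0.49 with FAL-1 knockdown and 0.29 ± 0.44 with BMI1 knockdown (SD, n = 2 hairpins each).

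**Figure D2:**
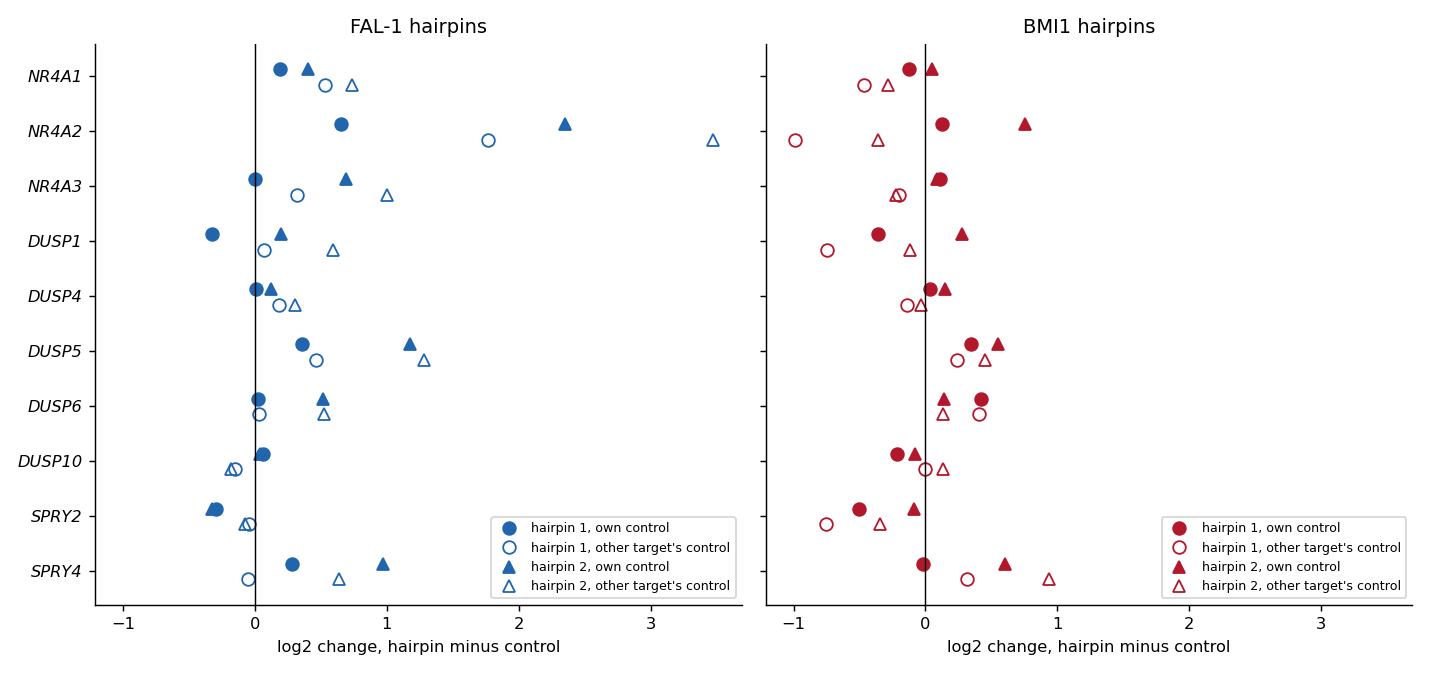
Log2 change (horizontal axes, hairpin minus control) of each of the 10 genes with each FAL-1 hairpin (left) and BMI1 hairpin (right), against the own control (filled) and the other target's control (open), with hairpin 1 as circles and hairpin 2 as triangles. DUSP5 and DUSP6 lie right of 0 and SPRY2 left of 0 with every hairpin and either control, while NR4A2 with the BMI1 hairpins changes side with the control.

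With FAL-1 knockdown, 8 of the 10 genes were above the own control with both hairpins, the exceptions being DUSP1 and SPRY2, and 1, SPRY2, was below it with both. Over all genes 37.2% were above and 27.7% below. With BMI1 knockdown 5 of 10 were above with both hairpins (NR4A2, NR4A3, DUSP4, DUSP5 and DUSP6) and 2 below (DUSP10 and SPRY2), beside 32.9% and 30.7% of all genes. A 1.5-fold increase with both hairpins was reached by NR4A2 with FAL-1 knockdown (0.576% of all genes), and by none of the 10 with BMI1 knockdown (0.538%). No gene of the 10 was lower by 1.5-fold with both hairpins of a target (0.635% for FAL-1 and 0.901% for BMI1). Against the other target's control, 7 of 10 were above with both FAL-1 hairpins and 2 below, beside 41.8% and 28.1% of all genes. With both BMI1 hairpins 4 of 10 were above the FAL-1 control and 6 below, beside 31.8% and 37.7%. Among the 4 was DUSP10, which with BMI1 hairpin 1 was level with the FAL-1 control, both at 5.3834. NR4A2 was again the only one of the 10 past 1.5-fold, with the FAL-1 hairpins (2.47% of all genes higher and 1.5% lower), and none was with the BMI1 hairpins (0.966% and 2.05%). Since the 10 genes were chosen with these contrasts known, nothing is read from the counts.

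The median change of the 10 genes was 0.28 with FAL-1 knockdown and 0.09 with BMI1 knockdown, beside 0.03 for FAL-1 and 0.01 for BMI1 over all genes. By hairpin, the FAL-1 medians were 0.04 with hairpin 1 and 0.46 with hairpin 2, and the BMI1 medians 0.01 with hairpin 1 and 0.14 with hairpin 2. Against the other target's control the medians were 0.31 for FAL-1 and -0.15 for BMI1. The FAL-1 value therefore rested mostly on hairpin 2, and the BMI1 value took its sign from the control.

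When hairpin arrays were set against both controls together, 2 of the 10 genes (DUSP5 and DUSP6) had all 4 hairpin arrays above both, as did 9.02% of all genes. SPRY2 had all 4 below both, as did 8.04% of all genes. Without FAL-1 hairpin 2, which can only keep or add genes, the counts were 2 above and 1 below, beside 10.6% and 10.2% of all genes. With the FAL-1 hairpins alone, 6 of 10 were above both controls (NR4A1, NR4A2, NR4A3, DUSP4, DUSP5 and DUSP6), beside 26.6% of all genes, and SPRY2 was below both, beside 17.2%. With the BMI1 hairpins alone, DUSP5 and DUSP6 were above both controls, beside 19.7% of all genes, and SPRY2 was below both, beside 21.8%. The comparisons of a target with the 2 controls share their hairpin arrays and are not independent of each other.

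Within a target, hairpin 2 was often the higher. With FAL-1, 8 of the 10 genes were higher with hairpin 2 than with hairpin 1, beside 56.8% of all genes, and the median difference was 0.51, beside 0.04 over all genes. With BMI1, also 8 of 10 were higher with hairpin 2, beside 56.7% of all genes, with a median difference of 0.19 beside 0.03. NR4A1, NR4A2, DUSP1, DUSP4, DUSP5 and SPRY4 did so with both targets, as did 37.6% of all genes. FAL-1 hairpin 2 was the highest of the 6 arrays for 8 of the 10, all but DUSP10 and SPRY2, and for 30.7% of all genes. Hairpins that share a number are different sequences against different targets.

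The other genes of these pathways were drawn from 8 lists with 97 genes, of which 84 were measured by a probe set with 1 gene name and 13 were not analysed here. None of the 84 passed limma's test with either knockdown, with 0% of all 18418 genes called. Without adjustment, 563 genes had a p under 0.05 with FAL-1 knockdown and 477 with BMI1 knockdown, among them 2 and 4 of the 84. None of the values of list genes given next therefore passed the threshold.

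Of the 5 other MAP kinase phosphatases, DUSP16, which acts on JNK and p38, had all 4 hairpin arrays above both controls. DUSP7 and DUSP9, both directed at ERK, had all 4 below. Over all genes these shares were 9.02% above and 8.04% below. DUSP16 read 0.23 ± 0.26 with FAL-1 knockdown and 0.62 ± 0.08 with BMI1 knockdown. DUSP9 read -0.35 ± 0.09 for FAL-1 and -0.33 ± 0.09 for BMI1, DUSP7 -0.28 ± 0.31 for FAL-1 and -0.42 ± 0.24 for BMI1, and DUSP2 0.31 ± 0.41 for FAL-1 and 0.10 ± 0.11 for BMI1 (SD, n = 2 hairpins each). The ERK phosphatases thus had values on either side of 0, with DUSP5 and DUSP6 above and DUSP7 and DUSP9 below with every hairpin. The 5 other Sprouty and SPRED genes had medians of 0.05 for FAL-1 and 0.04 for BMI1, and none had its hairpin arrays apart from the controls. SPRY3 was at 0.35 ± 0.25 for FAL-1 and 0.20 ± 0.29 for BMI1, SPRED1 at -0.18 ± 0.14 for FAL-1 and -0.07 ± 0.39 for BMI1 and SPRED2 at 0.09 ± 0.28 for FAL-1 and -0.09 ± 0.23 for BMI1.

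The 16 other genes that follow ERK activity had a median change of 0.22 with FAL-1 knockdown and 0.05 with BMI1 knockdown. PHLDA1 read 0.99 ± 0.92 with FAL-1 knockdown and 0.24 ± 0.26 with BMI1 knockdown (SD, n = 2 hairpins each), with all 4 hairpin arrays above both controls. IER3, a stress-induced survival gene, read 0.80 ± 0.93 for FAL-1 and 0.43 ± 0.29 for BMI1. The immediate early genes, of which 20 were measured, had medians of 0.20 with FAL-1 knockdown and 0.42 with BMI1 knockdown. That list shares FOS, FOSL1, EGR1 and IER3 with the ERK list. With BMI1 knockdown 16 of the 20 were above the BMI1 control with both hairpins and none below, beside 32.9% and 30.7% of all genes, with CCN1, a matrix signalling protein, at 1.17 ± 0.12. With FAL-1 knockdown 10 of the 20 were above the FAL-1 control with both hairpins and 1 below, beside 37.2% and 27.7% of all genes. FOSL1 and JUNB, which encode AP-1 subunits, had all 4 hairpin arrays above both controls, as did 9.02% of all genes. None of the 20 had all 4 below, beside 8.04% of all genes.

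The median of the early genes depended on the control with both knockdowns. Against the BMI1 control, FOS read 1.11 ± 0.09 and EGR1 0.90 ± 0.11 with BMI1 knockdown (SD, n = 2 hairpins each). FOS, EGR1 and CCN1, 3 of the 20 early genes, were higher by 1.5-fold or more with each BMI1 hairpin, as were 0.538% of all genes. Against the FAL-1 control the BMI1 hairpins gave a median of -0.03 for the 20 genes, and means of 0.05 for FOS, -0.21 for EGR1 and 0.24 for CCN1. Of the 20, 4 were above the FAL-1 control with both BMI1 hairpins and 7 below, beside 31.8% and 37.7% of all genes. The FAL-1 control exceeded the BMI1 control by a median of 0.39 over these genes. ATF3 read -0.74 ± 0.35 with FAL-1 knockdown (SD, n = 2 hairpins), its FAL-1 control being the highest of the 6 arrays at 7.28. The part of the control arrays' state in the NR4A2 values was not tested.

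CREB pathway genes, 11 of them measured, had medians of 0.15 with FAL-1 knockdown and -0.03 with BMI1 knockdown. CREM, a CREB relative that is itself a target of CREB, had all 4 hairpin arrays above both controls, with 0.66 ± 0.35 for FAL-1 and 0.22 ± 0.08 for BMI1 (SD, n = 2 hairpins each). BDNF, a neurotrophin, did so too, at 0.37 ± 0.28 for FAL-1 and 0.27 ± 0.17 for BMI1. Over all genes 9.02% had all 4 hairpin arrays above both controls. RGS2, a regulator of G protein signalling, read 0.45 ± 0.34 for FAL-1 and 0.33 ± 0.11 for BMI1, but -0.34 for BMI1 against the FAL-1 control.

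The kinases upstream had medians near 0. The 17 measured genes of the ERK cascade had medians of -0.01 with FAL-1 knockdown and -0.06 with BMI1 knockdown. Of these, 3 were below both controls on all 4 hairpin arrays (FGFR1, FGFR3 and MAP2K1) and none above. Over all genes 8.04% were below and 9.02% above. FGFR3, a growth factor receptor, was at -0.21 ± 0.09 for FAL-1 and -0.55 ± 0.56 for BMI1, and FGFR4 read -0.61 ± 0.34 for FAL-1 and -0.45 ± 0.85 for BMI1. MAPK3, which encodes ERK1, read -0.20 ± 0.67 for FAL-1 and -0.45 ± 0.13 for BMI1, and the ERK-activated kinase RPS6KA1 -0.55 ± 0.80 for FAL-1 and 0.02 ± 0.32 for BMI1 (SD, n = 2 hairpins each). The 11 measured kinases of the JNK, p38 and ERK5 branches had medians of 0.03 with FAL-1 knockdown and -0.04 with BMI1 knockdown. Of these, 2 had all 4 hairpin arrays above both controls and 1 below, beside 9.02% and 8.04% of all genes. Those above were MAPK10, or JNK3, at 0.37 ± 0.02 for FAL-1 and 0.36 ± 0.09 for BMI1, and MAP2K4, an activator of JNK, at 0.20 ± 0.07 for FAL-1 and 0.18 ± 0.06 for BMI1 (SD, n = 2 hairpins each). The one below was MAP2K6, an activator of p38, at -0.47 ± 0.43 for FAL-1 and -0.85 ± 0.07 for BMI1. MAPK9, or JNK2, read -0.43 ± 0.85 for FAL-1 and -0.47 ± 0.25 for BMI1, and MAPK12, a p38 kinase, -0.04 ± 0.23 for FAL-1 and -0.50 ± 0.26 for BMI1. RXRA and RXRB, which encode retinoid receptors that can pair with NR4A1 and NR4A2, read -0.11 ± 0.16 and 0.32 ± 0.11 with FAL-1 knockdown and -0.18 ± 0.10 and 0.31 ± 0.16 with BMI1 knockdown.

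**Figure D3:**
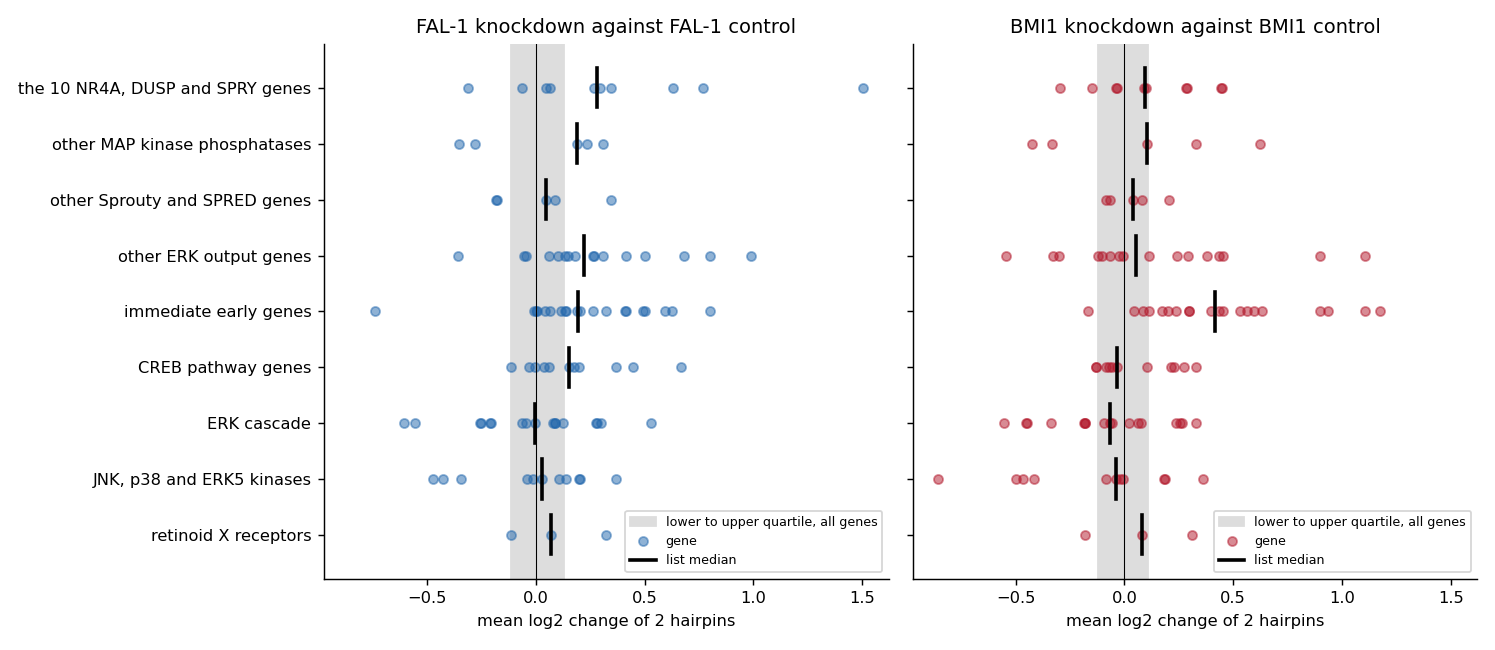
Mean log2 change of 2 hairpins against the own control (horizontal axes) for each measured gene of the 10 NR4A, DUSP and SPRY genes and of the 8 other lists, with FAL-1 knockdown left and BMI1 knockdown right, black bars for list medians and a grey band from the lower to the upper quartile of all genes. NR4A2 is the rightmost point with FAL-1 knockdown at 1.50, and the immediate early genes have a median of 0.42 with BMI1 knockdown.

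The gene with the widest range in each family was compared with all other genes that spanned at least 1 on the log2 scale, 1811 in number, by Pearson's r over the 6 arrays. The points share their processing and the 2 controls, and r is given as a measure of likeness only. NR4A2 was most like CYP4F11, a fatty acid hydroxylase (r = 0.998), LIF, a cytokine (r = 0.995), and TCP11L2 (r = 0.994), and 81 of the 1811 reached 0.95. CYP4F11 read 8.08 and 9.25 with the FAL-1 hairpins and 7.42 in their control, and 6.65 and 7.15 with the BMI1 hairpins and 6.61 in their control. LIF read 8.36 and 9.23 with the FAL-1 hairpins and 7.90 in their control, and 7.39 and 7.67 with the BMI1 hairpins and 7.11 in their control. Of the other 9 genes, NR4A3 (0.964), NR4A1 (0.947) and DUSP4 (0.946) were the nearest to NR4A2.

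DUSP5 was most like CEACAM1, a cell adhesion gene (r = 0.991), PLEKHM1, a lysosomal adaptor (r = 0.984), and CDKN1A, the gene of the cell cycle inhibitor p21 (r = 0.984), and 48 genes reached 0.95. CDKN1A read 10.17 and 11.70 with the FAL-1 hairpins and 9.65 in their control, and 10.34 and 10.65 with the BMI1 hairpins and 9.50 in their control. CEACAM1 was at 1.44 ± 1.25 with FAL-1 knockdown and 1.05 ± 0.21 with BMI1 knockdown (SD, n = 2 hairpins each). Like DUSP5, CDKN1A and CEACAM1 had all 4 hairpin arrays above both controls.

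SPRY4 had few near profiles. TAP1, a peptide transporter of antigen presentation, had r = 0.968 and was the only gene of the 1811 to reach 0.95, followed by CLN8 (r = 0.947) and the kinase gene LIMK2 (r = 0.945). TAP1 read 9.13 and 10.09 with the FAL-1 hairpins and 8.87 in their control, and 9.21 and 10.08 with the BMI1 hairpins and 8.92 in their control. As with SPRY4, hairpin 2 stood highest with both targets. SPRY2 was not like SPRY4 (r = -0.23) or DUSP5 (r = -0.18).

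**Figure D4:**
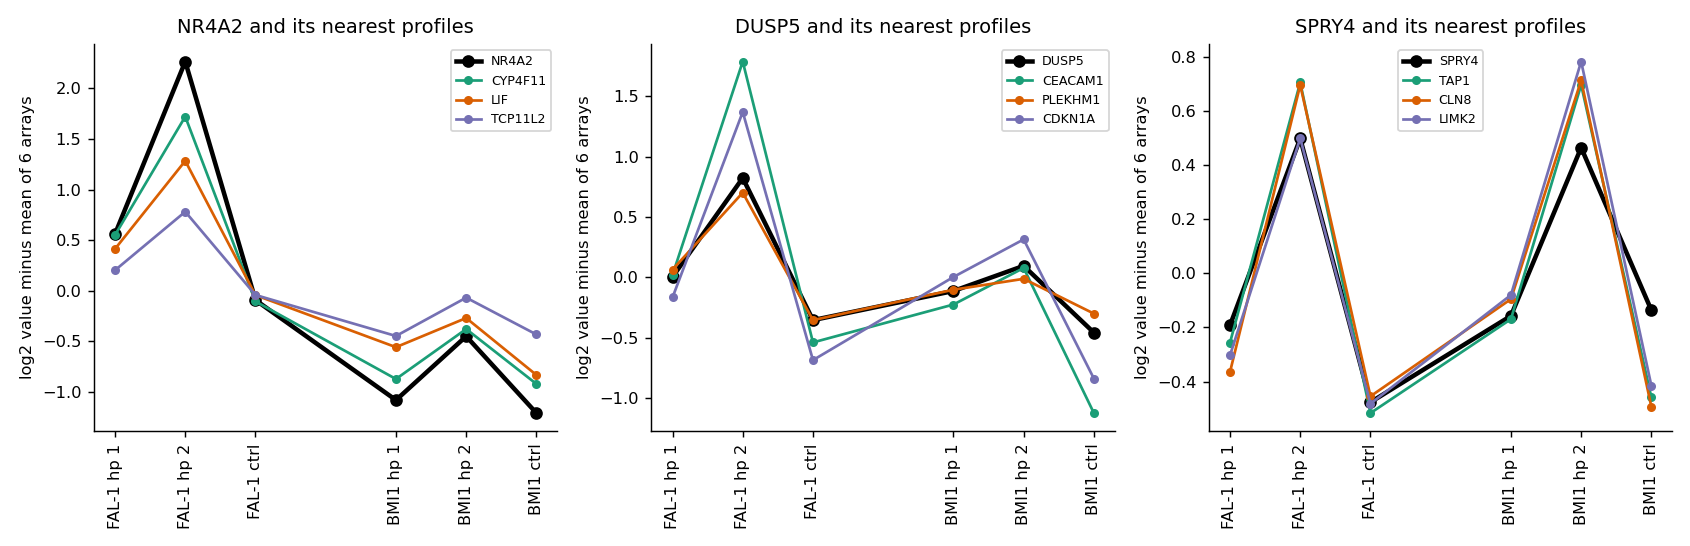
Log2 value minus the mean of the 6 arrays (vertical axes) for NR4A2, DUSP5 and SPRY4 (black) and the 3 genes most like each by Pearson's r, over the hairpin (hp) and control (ctrl) arrays, with lines joining points for reading only. NR4A2 and its likes are high in the FAL-1 set, DUSP5 and its likes are lowest in the controls, and SPRY4 and its likes peak with hairpin 2 of both targets.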

How the data were processed

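Expression was measured on 1-colour Affymetrix arrays. The authors deposited log2 values of 33252 probe sets, made with RMA, per the submitters' processing notes; version, software and joint normalization are not stated there. Gene names came from a platform annotation, with symbols updated through RefSeq: 19460 had 1 gene symbol, 1754 several and 12038 were not named. The brightest probe set stood for a gene. Those with several symbols were dropped, except BMI1's. This left 18418 genes.

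The 4 group means were fitted over all 6 arrays with limma 3.58.1 (R 4.3.3), two-sided, with Benjamini-Hochberg adjustment at 0.05 and 2 residual degrees of freedom. Each lone control is taken to have the hairpins' spread. The p-values measure only the spread between the 2 different hairpins of each target, which includes any difference in knockdown. The labels do not mention separate cultures, so part of that spread may be technical. With 6 arrays the precision is limited. An exact permutation test of 2 arrays against 1 cannot give a p under 0.333 and was not used. In 10 simulated sets for the BMI1 comparison, with 18418 genes, 0.1% of genes changed 2-fold and 30.4% of genes changed 4-fold were called.

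The 10 genes and all lists were chosen with earlier results of these data known. Named genes were all 10, the 2 list members with the largest mean change per target, the 3 most alike genes per family, the targets, FOS and EGR1, and cell type markers; DUSP2, DUSP7 and DUSP9 complete their list, FOSL1 an overlap. JUNB, FGFR1, MAP2K1, MAPK10 and MAP2K4 were named after their values were seen, to complete counts. Figures were drawn with matplotlib 3.10.9.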

Additional observations from a re-analysis of the deposited data

Results flagged for a closer look

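DUSP10 stands out because both FAL-1 hairpins were above their own control and both BMI1 hairpins below theirs. The FAL-1 change exceeded the BMI1 change by 0.20 on the log2 scale, and the difference was not tested. FAL-1 minus BMI1 was -0.21 between the control arrays and only -0.02 between the hairpin means, so the contrast lay mainly in the controls. Against the other target's control, the FAL-1 hairpins gave -0.15 and -0.18 and the BMI1 hairpins 0.0 and 0.13. The gene was below the lower quartile of all probe sets on every array, and its range over the 6 arrays was 0.21.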

How the results depend on the processing

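The count of genes called by limma was 0 for both knockdowns under every alternative run: the other target's control, the mean of both controls, cyclic loess, quantile normalization, averaged probe sets, the brighter genes, a variance trend, a robust prior, a threshold of 0.10, the replicate block and leaving out either hairpin. With the hairpin number as a replicate block 0 genes were called, and 1064 and 782 had an unadjusted p under 0.05 for FAL-1 and BMI1, beside 563 and 477 without it. The numbers do not pair the arrays, and hairpin differences of both targets correlated at 0.275 across genes. The BMI1 median of 0.09 became -0.15 against the other target's control and -0.0495 against the mean of both controls; the controls differed by a median of 0.22 over the 10 genes. Leaving out a hairpin, the BMI1 median ranged from 0.01 to 0.14 and the FAL-1 median from 0.04 to 0.46. Against the other target's control 4 of the 10 genes changed sign with BMI1 hairpins (NR4A2, NR4A3, DUSP4 and DUSP10) and 2 with FAL-1 hairpins (DUSP1 and DUSP10). Quantile normalization turned 1 of the 10 for BMI1, DUSP1, and cyclic loess turned none. Counts without FAL-1 hairpin 2 were added after the data were seen. They require all arrays on 1 side, so leaving out an array cannot lower them, and say nothing about stability. The counts were 2, 1, 4 and 6 with and without it, and the count of 6 FAL-1 genes above both controls stood beside 38.8% of all genes without it. The small number of arrays and the lack of a background measure for dim genes limit all values.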
